A study of Mus musculus with 12 samples.

Results

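The genes described here were 10 genes of the mouse microRNA pathway: the 4 Argonaute genes Ago1, Ago2, Ago3 and Ago4, the nuclear cutting enzyme gene Drosha and its partner Dgcr8, the export factor gene Xpo5, the cytoplasmic cutting enzyme gene Dicer1 and its partner Tarbp2, and the GW182 family gene Tnrc6a. They were taken by name from 48709 genes with raw read counts, and all 10 were among the 18847 genes with enough reads to be tested. The study asked how a raised level of the microRNA miR-148a-3p changes transcription in hippocampal nerve cell cultures. RNA-seq of polyadenylated RNA was done on 12 cultures, 6 treated with a miR-148a-3p mimic and 6 with a negative control oligonucleotide. The cells came from hippocampi of CD1 mouse embryos at embryonic day 17, which were pooled before plating, so that a sample was a culture and not an animal. Both groups received their oligonucleotide in lipid nanoparticles together with the protein ApoE4 on day 10 in vitro and were harvested 48 h later, on day 12, and no untreated culture was among the samples used here. Whether the 6 samples of a group came from separate preparations was not stated, so the p-values measure the spread between these samples.

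MicroRNAs are short RNAs that guide Argonaute proteins to messenger RNAs. A microRNA gene is transcribed into a long RNA with a hairpin, which Drosha and Dgcr8 cut out in the nucleus. Exportin 5, the product of Xpo5, carries the hairpin to the cytoplasm, where Dicer1 with Tarbp2 trims it to a short duplex. A strand of that duplex is held by an Argonaute protein, which binds a GW182 protein such as Tnrc6a, and this protein recruits the enzymes that shorten the poly(A) tail. A synthetic mimic is already a short duplex and is loaded without the steps of Drosha, Xpo5 and Dicer1. In neurons this pathway is known for its part in development, synaptic plasticity and cell survival.

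The guide strands of both oligonucleotides, as the study's reagent list gives them, are shown because their seeds define the sites searched in the 10 genes. Both are 22 bases long, and capitals mark the seed, bases 2 to 8. The mimic strand was identical to the RefSeq entry for mmu-miR-148a-3p.
mimic: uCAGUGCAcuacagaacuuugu
negative control: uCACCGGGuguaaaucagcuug
The seeds differ, so the sites of the mimic and of the control are different words. The series description calls the control an siRNA, and the values for the control sequence below assume that the listed strand is the one used.

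A site was a match, in the longest annotated 3′UTR of a gene, to bases 2 to 8 of the strand, which reads TGCACTG for the mimic, or to bases 2 to 7 followed by A, which reads GCACTGA for the mimic. A match that meets both rules, TGCACTGA, is called an 8-base site. For the control strand bases 2 to 8 gave the word CCCGGTG, bases 2 to 7 with A gave the word CCGGTGA, and both rules together gave CCCGGTGA. Only the transcript strand was searched. Of the 10 genes, 7 held at least 1 site for the mimic and 6 held an 8-base site, with 16 sites in all, of which 7 were 8-base sites. The 8-base sites are printed below with 9 bases on either side, since they are the longest matches to the mimic in the genes that changed and in those that did not. The control site of Ago2 follows them as the only match to the control strand in the set. Capitals mark the site, the sequence reads along the transcript from GENCODE M21 models, and the coordinates are those of the capitals on GRCm38, which is the mm10 build.
Ago1, chr4:126435390-126435397, minus strand: gtgtctgaaTGCACTGAgtcctctgg
Ago2, chr15:73105653-73105660, minus strand: taggatctaTGCACTGAagtggagag
Ago2, chr15:73102582-73102589, minus strand: cctgtaagtTGCACTGAtctctcaac
Ago3, chr4:126339153-126339160, minus strand: cagtaacatTGCACTGAccgtctggg
Ago4, chr4:126493109-126493116, minus strand: cagaatggtTGCACTGAgtctactct
Dgcr8, chr16:18255188-18255195, minus strand: tacactataTGCACTGAcaagaagta
Tnrc6a, chr7:123193326-123193333, plus strand: ttttaccttTGCACTGAgtgatgttc
Ago2, site of the negative control, chr15:73102842-73102848, minus strand: gtggacaatCCCGGTGgccccagac
In addition, Ago1 held 1 shorter site, Ago3 and Ago4 held 2 each, Tnrc6a held 1 and Dicer1 held 3, while no site was found in the 3′UTRs of Drosha, Xpo5 and Tarbp2. In Ago4 all 3 sites lay within the first 561 bases of a 3′UTR of 3682 bases, whereas the 8-base site of Ago1 lay near the far end of its 3′UTR, at bases 4106 to 4113 of 4491. The Ago2 control site lay between its mimic sites, at bases 4060 to 4066 of a 3′UTR of 11064 bases. Ago1, Ago2, Ago4, Dgcr8, Dicer1 and Tnrc6a were also among the predicted targets of miR-148a-3p that the study supplied, and Ago3, Drosha, Xpo5 and Tarbp2 were not.

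These shares of genes with a site have to be read beside the length of the 3′UTRs. Over the 15072 tested genes with an annotated 3′UTR, 21.9% held a mimic site, 4.13% held an 8-base site and 4.42% held a site for the control. The median 3′UTR was 3013.5 bases long in the 10 genes and 1173 bases over all. Among these 15072 genes a site was present in 8.03% of those with a 3′UTR under 1000 bases, in 45.8% of those with 3000 to under 5000 bases and in 60.7% of those with 5000 bases or more. Drosha and Tarbp2, with 169 and 334 bases, were in the shortest class and held none. Of Dgcr8 and Xpo5, with 1000 to under 2000 bases, Dgcr8 held a site, against 22.6% of all genes in that class. Tnrc6a, with 2345 bases, held sites in a class where 33.1% did, and Ago1, Ago4 and Dicer1 all held sites in the class of 3000 to under 5000 bases. Ago2 and Ago3, with 11064 and 12742 bases, were in the longest class and held sites.

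Per kilobase of exon, the 10 transcripts covered a range of about an order of magnitude in the control cultures, with Drosha and Ago1 at the top and Ago4 and Tarbp2 at the bottom. Levels between genes are given here in RPKM: a gene's reads, scaled to a common library size (CPM), are divided by the length of the union of a gene's exons in kilobases, and the mean ± SD over 6 control libraries is given. Drosha stood at 22.4 ± 0.688 RPKM and Ago1 at 21.7 ± 0.984, and their ranges over the libraries overlapped. Ago2 followed at 14.7 ± 0.680, Xpo5 at 12.0 ± 0.499 and Tnrc6a at 10.7 ± 0.440. Below them came Dicer1 at 6.40 ± 0.327, Dgcr8 at 4.53 ± 0.152 and Ago3 at 2.99 ± 0.281. Ago4 at 2.11 ± 0.139 and Tarbp2 at 2.08 ± 0.274 RPKM could not be ordered, since their ranges overlapped. All other neighbours in this order had ranges that did not overlap. The order of the middle genes depended on the length used: with the longest transcript of each gene in place of the exon union, Tnrc6a, at 16.6 RPKM, and Xpo5, at 16.3, stood above Ago2, at 15.0, and Tarbp2, at 3.47, stood above Ago3, at 3.18. Drosha and Ago1 came first under both lengths.

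**Figure D1:**
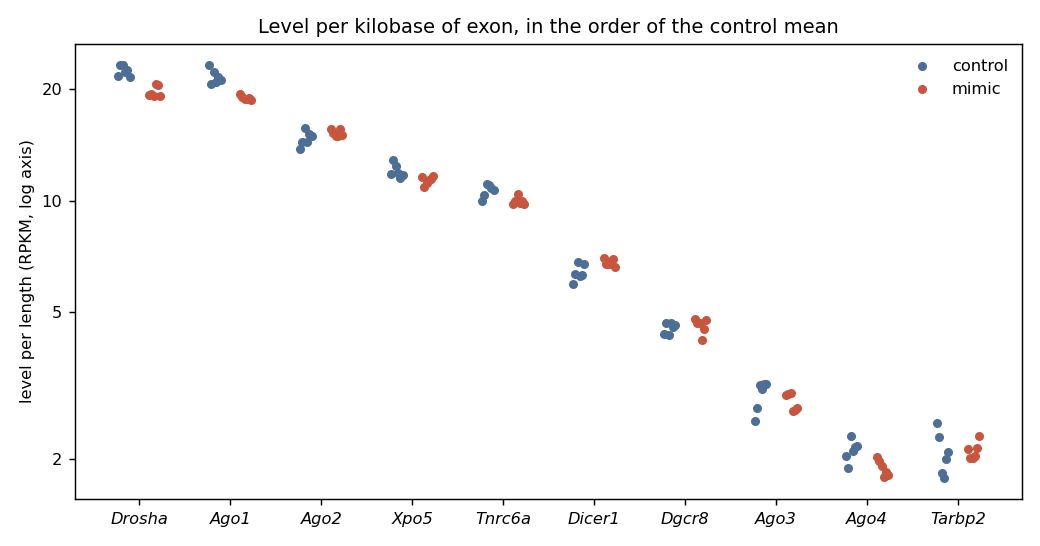
Level of the 10 genes in RPKM (log axis), with 1 point per library (6 control in blue, 6 mimic in red), ordered by the control mean. Drosha and Ago1 lie near 20 RPKM and Ago4 and Tarbp2 near 2, and the span of the 10 genes is far wider than the distance between the groups of any of them.

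Of the 10 genes, 3 were lower in the mimic cultures at an adjusted p under 0.05 (Ago1, Ago4 and Drosha) and none was higher. The test was edgeR's quasi-likelihood test with Benjamini-Hochberg adjustment over all 18847 genes, and every adjusted p here and below is from it unless another tool is named. Over all tested genes 22.2% passed, with 10.7% lower and 11.5% higher, and among the 6297 genes with a mean of at least 1000 counts 26.9% passed, so 3 of 10 was near the share that passed in either direction and above the share that passed as lower, a comparison that rests on 3 genes and was given no test. The changes were small: the median log2 fold change of the 10 genes was −0.078, against −0.012 over all tested genes, and the median size among all genes that passed was 0.30. At an unadjusted edgeR p under 0.05, 6 of the 10 passed, with Xpo5 and Tnrc6a lower and Dicer1 higher beside the 3 named, against 32.7% of all tested genes at the same threshold. DESeq2 called 4 of the 10, all lower, against 23.8% of all tested genes, 11.4% as lower. The groups did not overlap in Ago1 and Drosha, which is 2 of 10 genes, against 13.3% of all tested genes, 5.83% with mimic lower and 7.43% with mimic higher. In bulk RNA, fewer cells of a type and less RNA per cell cannot be told apart, and this holds for every difference below.

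**Figure D2:**
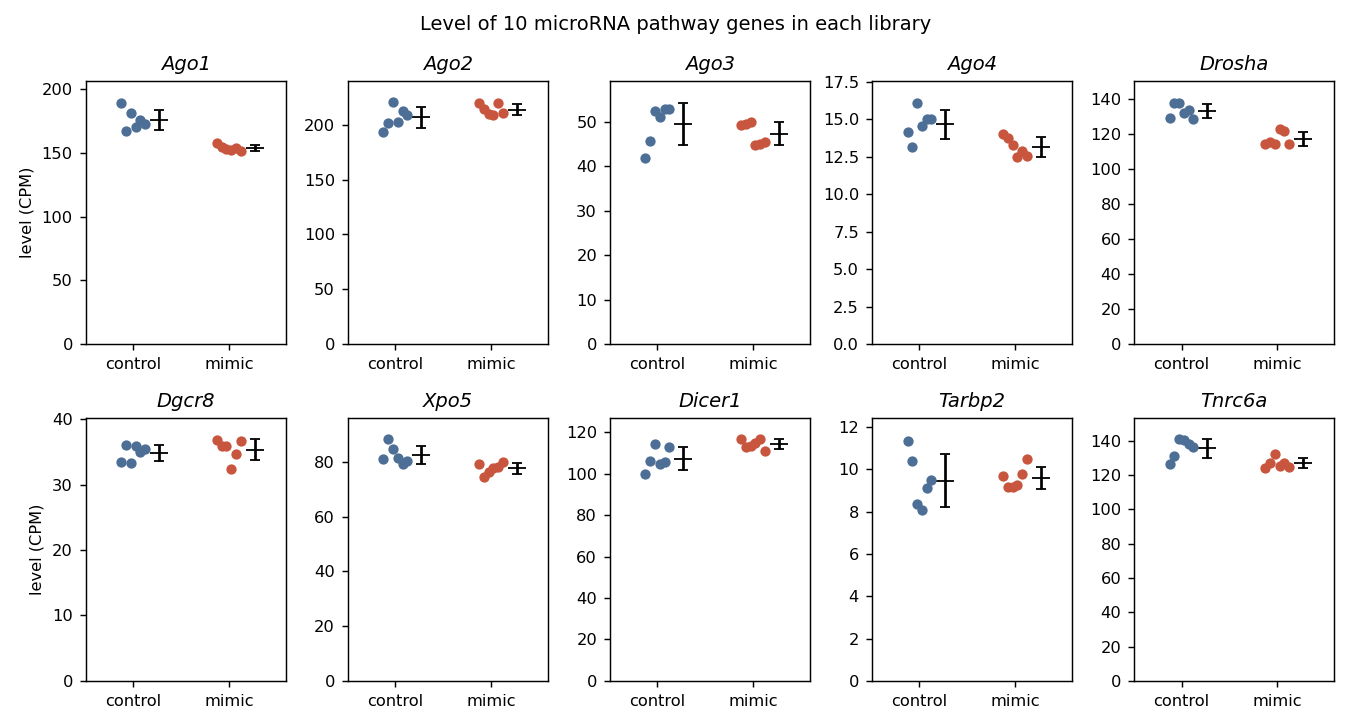
Level in CPM (reads scaled to a common library size) of the 10 genes in each library, with 6 control and 6 mimic points per gene, and a cross bar at each group mean with whiskers of 1 SD. The mimic points of Ago1 and Drosha all lie below their control points, and in the other 8 genes the groups overlap.

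Among the Argonaute genes, Ago1 and Ago4 fell and Ago2 and Ago3 did not pass the test. The 4 proteins all hold microRNAs, and Ago2 is the member known for cutting a fully matched target. Values within a gene are given in CPM, scaled by edgeR's TMM factors. Ago1 ranged from 168 to 189 CPM in the control cultures, with a median of 174, and from 152 to 157 in the mimic cultures, with a median of 153. All 6 mimic values lay below the lowest control value. The mean was 176 ± 7.99 CPM in control and 154 ± 2.04 in mimic (SD, n = 6 each). On the log2 scale this was −0.19 with a standard error of 0.034 and an edgeR adjusted p of 0.000413, so that Ago1 fell by 12.6%. It passed in all 19 alternative analyses of the same data that set no minimum fold change, with log2 fold changes between −0.21 and −0.17.

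Ago4 was a gene of low counts, with 280 to 596 reads per library. It ranged from 13.2 to 16.1 CPM in control, with a median of 14.8, and from 12.4 to 14.0 in mimic, with a median of 13.1. The groups overlapped, and 3 mimic values lay below the lowest control value. Its log2 fold change was −0.16 with a standard error of 0.054 and an edgeR adjusted p of 0.0421. This call held in 9 of the 19 alternatives, and the edgeR or DESeq2 adjusted p over them ran from 0.00374 to 0.112. Among the 10 losses were those when control replicate 3, 4, 5 or 6 or mimic replicate 3, 4, 5 or 6 was left out, with the weakest value without control replicate 3, at a log2 fold change of −0.13, and the loss when genes of low counts were not filtered, at an edgeR adjusted p of 0.0946.

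Ago2 went the other way without passing. Control cultures ranged from 194 to 221 CPM, with a median of 206, and mimic cultures from 209 to 219, with a median of 212. Every mimic value lay inside the control range. The log2 fold change of Ago2 was 0.047, with a 95% confidence interval from −0.027 to 0.12 and an edgeR adjusted p of 0.385. The gene held 2 sites of 8 bases for the mimic and the 7-base match to the listed control strand printed above, and the effect of neither was tested.

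Ago3, with the longest 3′UTR of the 10, ranged from 42.0 to 53.0 CPM in control and from 44.8 to 50.0 in mimic, with medians of 51.9 and 47.4. The control range enclosed all mimic values. Its log2 fold change was −0.069, with a 95% confidence interval from −0.19 to 0.052 and an edgeR adjusted p of 0.444. When the shallowest libraries, control replicates 1 and 2, were both left out, it was −0.15 with an edgeR adjusted p of 0.00417. This was the only 1 of the 19 alternatives in which Ago3 passed, and 31.3% of all tested genes passed in it. Without control replicate 1 alone the log2 fold change of Ago3 was −0.11, with an edgeR adjusted p of 0.0728.

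Within the Argonaute transcripts, Ago1 took a smaller share and Ago2 a larger share in the mimic cultures. Such shares add up to a fixed total, so a lower Ago1 level raises the share of Ago2 also where Ago2's own level is the same. The level of Ago2 was 14.7 ± 0.680 RPKM in control and 15.2 ± 0.342 in mimic, with ranges that overlapped, while Ago1 stood at 21.7 ± 0.984 and 18.9 ± 0.251. Of the summed RPKM of the 4 genes, Ago1 made up 52.2 ± 1.84% in control and 48.7 ± 0.310% in mimic (SD, n = 6 each). Ago2 made up 35.5 ± 1.18% in control and 39.1 ± 0.482% in mimic. The shares did not overlap between groups for either gene: Ago1 was at 51.2 to 55.9% in control and 48.4 to 49.2% in mimic, and Ago2 was at 33.1 to 36.2% and 38.5 to 40.0%. Ago3 took 7.21% and 7.34%, and Ago4 took 5.08% and 4.86%. Per kilobase of exon, Ago1 remained the most abundant Argonaute transcript in all 12 libraries. In CPM, which is not divided by length, Ago2 lay above Ago1 in every library. The mean CPM of Ago2 and Ago1 was 207 and 176 in control and 214 and 154 in mimic. The ranking and the shares thus rest on annotated lengths, and the lengths present in these cultures were not measured. The summed level was 41.5 ± 1.33 RPKM in control and 38.9 ± 0.704 in mimic, with ranges of 39.6 to 43.5 and 38.2 to 40.0 that overlapped. The shares are sums over chosen genes and were given no test. The gap in the Ago2 share was 3.63 percentage points with all libraries and 3.15 to 3.77 points when any 1 library was left out.

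**Figure D3:**
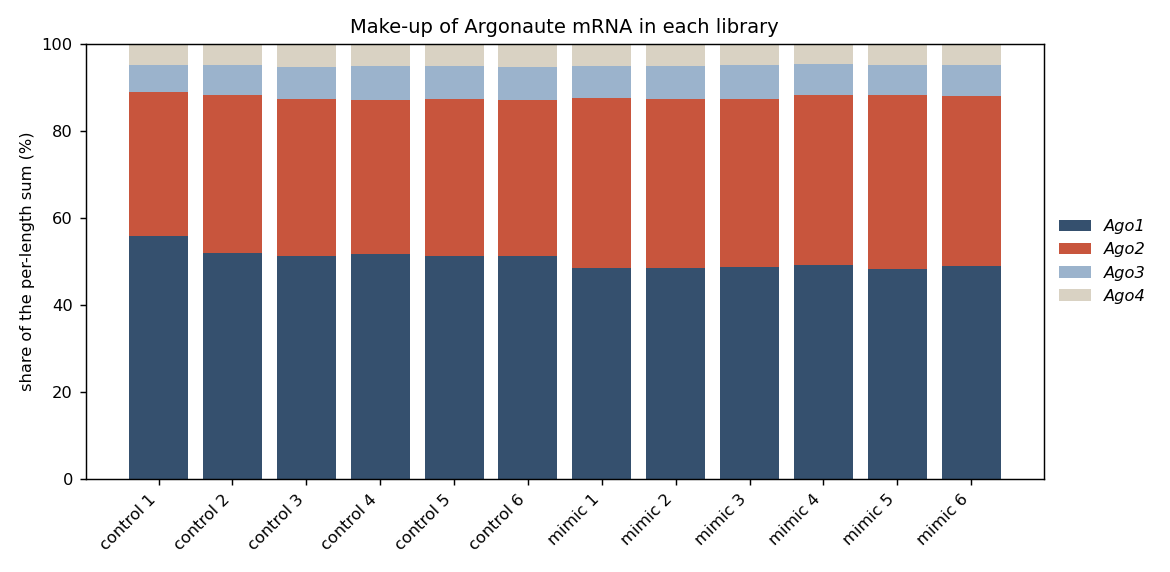
Share of each Argonaute gene in the summed RPKM of Ago1 to Ago4, in percent, drawn as 1 stacked bar per library for 6 control and 6 mimic libraries. Ago1 shares lie lower in the mimic libraries (48.4 to 49.2%) than in the control libraries (51.2 to 55.9%), and Ago2 shares lie higher.

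In the nuclear step, Drosha fell and Dgcr8 did not pass. Drosha, the enzyme that makes the first cut, ranged from 128 to 138 CPM in control, with a median of 133, and from 114 to 123 in mimic, with a median of 115. All mimic values lay below all control values. The mean changed from 133 ± 4.08 to 117 ± 4.13 CPM (SD, n = 6 each), so that Drosha fell by 12.1%, with a log2 fold change of −0.19, a standard error of 0.034 and an edgeR adjusted p of 0.000610. Like Ago1, Drosha passed in all 19 alternatives, with log2 fold changes between −0.20 and −0.17. Unlike Ago1, it held no site for the mimic in its annotated 3′UTR of 169 bases.

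Dgcr8, the RNA-binding partner that positions Drosha on the hairpin, ranged from 33.3 to 36.0 CPM in control and from 32.3 to 36.7 in mimic, with medians of 35.2 and 35.9. The mimic range enclosed the control range. Its log2 fold change of 0.021 had a 95% confidence interval from −0.064 to 0.11 and an edgeR adjusted p of 0.776, and the gene held an 8-base site. Some of its reads cannot be assigned with certainty: 17.1% of its exon bases overlap exons of other genes, among them Trmt2a on the opposite strand, and whether the counting used the strand was not stated. Trmt2a itself had a log2 fold change of 0.016 and an edgeR adjusted p of 0.852.

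Xpo5, the hairpin exporter, ranged from 79.1 to 88.4 CPM in control, with a median of 81.3, and from 74.6 to 79.9 in mimic, with a median of 78.0. The groups overlapped, with 4 mimic values below the lowest control value. Its log2 fold change was −0.087, with a 95% confidence interval from −0.16 to −0.013 and an edgeR adjusted p of 0.0873. It passed in 2 alternatives, at an edgeR adjusted p of 0.0489 without control replicate 1 and of 0.0407 with upper-quartile scaling. No site for the mimic was found in its 3′UTR of 1327 bases.

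The cytoplasmic cutting step gave no call. Dicer1 ranged from 99.7 to 114 CPM in control, with a median of 106, and from 111 to 117 in mimic, with a median of 114. The groups overlapped, with 3 mimic values above the highest control value. Its log2 fold change was 0.089, with a 95% confidence interval from 0.012 to 0.17 and an edgeR adjusted p of 0.0946, and it was 0.0493 without control replicate 3. This gene, with the largest value above 0 in the set, held 3 sites for the mimic, none of them of 8 bases.

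Tarbp2, the double-stranded RNA-binding partner of Dicer1, was the gene with the fewest reads, 225 to 310 per library. It ranged from 8.08 to 11.4 CPM in control and from 9.16 to 10.5 in mimic, with medians of 9.32 and 9.48, and the control range enclosed the mimic range. The log2 fold change was 0.030 with an edgeR adjusted p of 0.840, and the 95% confidence interval from −0.13 to 0.19 was the widest of the 10. Its sign turned when control replicate 3 or 4 was left out, at −0.0062 and −0.014. Of the 50-base words of its transcripts, the length of the reads, 14.3% also occur in another annotated gene, Gm18584, or elsewhere among the transcripts of other genes. The same share was 15.0% for Dgcr8, 3.46% for Ago2 and at most 1.53% for the other 7 genes, so few reads of the Argonaute genes could be confused with each other.

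Tnrc6a, which links Argonaute to the deadenylases, ranged from 127 to 141 CPM in control, with a median of 137, and from 124 to 132 in mimic, with a median of 126. The groups overlapped, with 3 mimic values below the lowest control value. Its log2 fold change was −0.096, with a standard error of 0.034, a 95% confidence interval from −0.17 to −0.024 and an edgeR adjusted p of 0.0536, just outside the threshold. It passed in 6 of the 19 alternatives. The edgeR adjusted p was 0.00605 without control replicate 1 and 0.0432 without mimic replicate 3, the highest mimic value, and DESeq2 gave 0.0178. In the other direction, it was 0.123 in edgeR without control replicate 3. The highest edgeR adjusted p, 0.172, came where genes of low counts were not filtered.

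Setting the sites beside the changes, genes with and without sites were found among those that fell. Ago1, with 2 sites, and Ago4, with 3, passed as lower, and so did Drosha, with none. Ago2 with 2 sites, Ago3 with 3, Dicer1 with 3, Tnrc6a with 2 and Dgcr8 with 1 did not pass, and 3 of these 5, Ago2, Dgcr8 and Dicer1, had values above 0. Over the 15072 tested genes with an annotated 3′UTR the share called lower was 10.7% without a site, 17.7% with 1 site, 23.8% with 2 and 27.8% with 3 or more, and the median log2 fold changes were 0.0014, −0.031, −0.053 and −0.056. Most genes with sites in these data were thus not called lower, whatever their number of sites. Sites were more frequent in longer 3′UTRs, and these shares were not matched for length. Whether they follow the sites or the length was not tested. Within the 10 genes the number of sites and the size of the change did not run in parallel, and with 10 chosen genes no test of this was made.

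**Figure D4:**
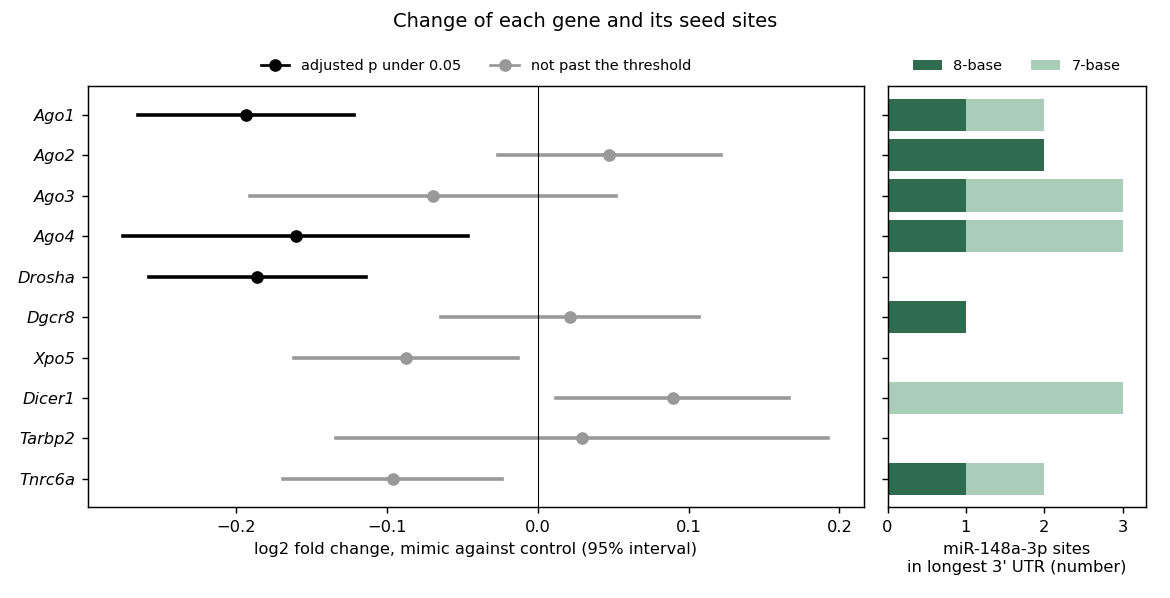
Log2 fold change of mimic against control for the 10 genes, with 95% confidence intervals from edgeR (n = 6 libraries a group), black where the adjusted p was under 0.05, and bars for the number of mimic sites of 7 and 8 bases in the longest 3′UTR of each gene. Ago1, Drosha and Ago4 passed as lower, and both Dicer1 with 3 sites and Ago2 with 2 sites lie above 0.

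The wider pathway was described with a list of 63 other genes, of which 62 were tested (Lin28a had too few reads). Of these, 15 passed (24.2%), 8 higher and 7 lower, which is near the background of 22.2%, and the median log2 fold change of the 62 was 0.0097. The split between directions depended on single libraries, on the scaling and on the filter. The 7 lower calls became 2 to 4, beside 7 or 8 higher, when certain single libraries were left out. These were control replicates 3 and 6 and mimic replicates 1, 2, 4, 5 and 6. Upper-quartile scaling gave 7 higher and 10 lower. Without the filter on low counts 8 were higher and 3 lower, where 5.95% of all genes were higher and 5.13% lower. Without mimic replicate 6 the total was 9. None of 8 cofactors of the nuclear cutting step passed in edgeR or in DESeq2, and none had an unadjusted edgeR p under 0.05, where the shares over all tested genes were 22.2%, 23.8% and 32.7%. In nuclear transport, 1 of 3 passed: Tnpo1, a nuclear import receptor, was higher by 0.40 on the log2 scale (standard error 0.092, edgeR adjusted p 0.00497). Tnpo1 held 2 sites for the mimic, 1 of them of 8 bases. Of 9 genes for Dicer partners and loading of Argonaute, 1 passed, the Hsp90 co-chaperone gene Fkbp5, with a log2 fold change of 0.32 (standard error 0.045, edgeR adjusted p 4.59e-05).

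Among 12 GW182 paralogues and Argonaute cofactors, 3 were higher and 2 lower, beside 11.5% higher and 10.7% lower over all tested genes. A count of 5 in 12 genes was given no test. Ajuba, a LIM domain protein of the Argonaute complex, was lower by the most, from 14.0 ± 1.02 to 8.36 ± 1.36 CPM (SD, n = 6 each), or −0.74 on the log2 scale with an edgeR adjusted p of 9.32e-06, and it held 2 sites of 8 bases. Its relative Limd1, with no site, was higher by 0.38 on the log2 scale (edgeR adjusted p 7.20e-05). Pabpc1, the poly(A)-binding protein gene, was higher by 0.18 (edgeR adjusted p 0.000571).

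The other GW182 genes, named after their values were seen, changed in opposite directions. Tnrc6b ranged from 153 to 173 CPM in control and from 177 to 187 in mimic, with no overlap and a log2 fold change of 0.16 (standard error 0.037, edgeR adjusted p 0.00320). Tnrc6c ranged from 157 to 171 in control and from 146 to 152 in mimic, also with no overlap, at −0.14 (standard error 0.031, edgeR adjusted p 0.00407). Tnrc6b held 1 site for the mimic and Tnrc6c held 3, and Tnrc6a, described above, lay on the side of Tnrc6c.

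Among the enzymes that act after Argonaute, the counts were small and mixed. Of 12 genes of the deadenylase complexes 1 was higher and 2 were lower: Pan2, the catalytic subunit of its complex, at 0.26, and Cnot6 and Cnot8, both catalytic subunits of the CCR4-NOT complex, at −0.23 and −0.11 on the log2 scale, with edgeR adjusted p of 9.60e-05, 0.0283 and 0.0336. Of 11 decapping and decay genes 2 were higher and 2 lower, with Lsm14a at 0.15, Edc3 at 0.14, Dcp1b at −0.13 and Lsm14b at −0.098 on the log2 scale (edgeR adjusted p of 0.00733, 0.0309, 0.0420 and 0.0359). Edc3 and Lsm14b held 1 site for the mimic each, and Lsm14a and Dcp1b held none. Of 7 tested genes for microRNA tailing and turnover 1 passed: Lin28b, an inhibitor of let-7 maturation, at −0.48 (standard error 0.16, edgeR adjusted p 0.0460), with a mean of 47.25 counts per library. Among 61 of the 62 genes with an annotated 3′UTR, 17 held a mimic site, of which 4 were lower and 3 higher, and 44 held none, of which 2 were lower and 5 higher. Over the 15072 tested genes with an annotated 3′UTR, 10.7% of those without a site were lower and 14.2% higher, and of those with 1, 2 or at least 3 sites 17.7 to 27.8% were lower and 8.23 to 12.2% higher.

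**Figure D5:**
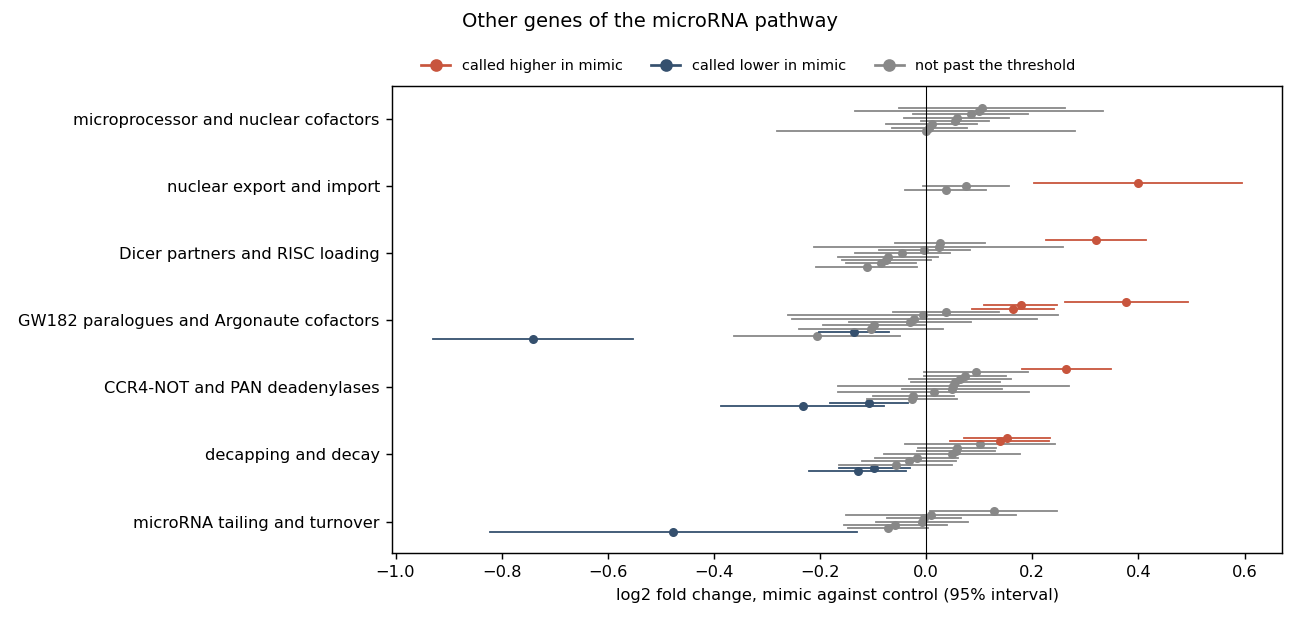
Log2 fold change of mimic against control for the 62 tested genes of the wider microRNA pathway, 1 point per gene with its 95% confidence interval, by group, with the genes that passed in edgeR in red (higher) or blue (lower). Ajuba lies lowest at −0.74 and Tnpo1 highest at 0.40, and most other points lie near 0.

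The libraries held 20018234 to 37149112 reads assigned to genes, with control replicate 1 the shallowest. Without it 5150 genes passed, against 4182 with all libraries, which is 27.4% and 22.2% of the genes tested, and 5 of the 10 members passed, with Xpo5 and Tnrc6a added to Ago1, Ago4 and Drosha. Markers of several cell types moved with the treatment. The summed CPM of 7 markers of dividing cells was 195 to 230 in control and 377 to 401 in mimic, with all 7 higher. That of 9 astrocyte markers was 4745 to 5237 and 5707 to 6178, with 6 higher and 1 lower, and that of 7 markers of the oligodendrocyte lineage was 391 to 679 and 766 to 961, with 5 higher. The sum of 12 neuron markers was 8206 to 8869 and 8216 to 8500, with 1 higher and 3 lower, so the labelled cell type was present in both groups along with glia. Of 7 mesenchymal markers 2 were lower, with sums of 196 to 264 and 94.9 to 219. Of 4 tested endothelial markers 2 were lower, and the sums over the 5 listed, with the untested Cldn5, were 46.5 to 68.5 and 28.3 to 50.7. Of 9 microglia markers 2 were lower (11.0 to 13.3 and 9.31 to 20.3). No marker was at 0 in every library. The part of these shifts in the values of the 10 genes was not tested.

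Genes whose level moved most like Ago1 and Drosha between libraries of the same group were Cmtm4, Mxd1 and Bmp7 for Ago1, with Pearson's r of 0.938, 0.931 and 0.930, and Mfap4, Pifo and Rsph10b for Drosha, with r of 0.941, 0.924 and 0.923. The correlation was over 12 libraries after subtraction of each group's mean, among 11743 genes, and the points share library preparation and depth. With so many genes compared over so few libraries, these values are a description only.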

How the data were processed

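RNA was isolated from 12 mouse hippocampal cultures, made into TruSeq libraries of polyadenylated RNA and sequenced as single-end reads of 50 bases. The deposited files hold raw read counts per Ensembl gene, 1 file per sample. Per the labels and the submitters' processing notes, the authors used FastQC 0.11.5, STAR 2.5.2b, featureCounts of Subread 1.5.1 and the mm10 build. Strand use in counting and the annotation release were not given in the sources used here. A table of normalised values, with 12 per-sample columns, was not used. No row without a gene ID entered the library sizes (0% of counts).

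Groups came from the sample titles. Genes that reached 5 counts in 6 or more of the 12 samples were kept and tested with edgeR 4.0.16 (R 4.3.3, limma 3.58.1): TMM factors, robust quasi-likelihood fit, mimic against control, no covariate, Benjamini-Hochberg adjustment over all 18847 genes and a threshold of 0.05. The standard error is the size of the log2 fold change divided by the root of the F statistic, and intervals are 95% intervals. The study used DESeq2. DESeq2 1.42.0 was run here as an alternative, as were other scalings, filters, a minimum fold of 1.2, a replicate block and leaving out libraries. The code was tested on simulated data. Replicates of a group differed beyond counting noise, with a chi-square per degree of freedom of 1.78 to 42.7 over 30 pairs, so none was merged. The SD covers differences between libraries. RPKM values were computed from the counts with exon unions of GENCODE M21, which also gave the 3′UTRs, each the longest after an annotated stop codon.

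The members and lists were chosen with earlier results of these data known. From the wider list, the text names up to 3 genes that passed per group with the largest change and a mean of at least 100 counts. For the member that passed with the largest change and the member with the highest level, it names the 3 genes most alike. Other genes named were chosen after their values were seen.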

Additional observations from a re-analysis of the deposited data

Results flagged for a closer look

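Among 22 sets of 6 values, the CPM of the 10 genes and the share of Ago2 in each group, 2 held a value whose gap to its nearest neighbour was above 0.625 of the whole range, the Dixon limit for 6 samples. About 1.1 such sets are expected by chance. Tnrc6a was at 132 CPM in mimic replicate 3, above the other 5 mimic cultures, and the gene passed when this library was left out, at an edgeR adjusted p of 0.0432. The share of Ago2 in the Argonaute sum was 33.1% in control replicate 1, the shallowest library, below the other 5 control cultures, and without this library the gap between groups was 3.15 percentage points.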

How the results depend on the processing

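Ago1 and Drosha stayed lower and past the threshold in each of 19 alternatives without a minimum fold. With a minimum fold of 1.2, no member passed (0 also at an unadjusted edgeR p under 0.05), 1 gene of the wider list passed, and 1035 of all genes did. The number of members that passed was 5 with upper-quartile scaling, where 23.3% of all genes passed (10.3% higher, 13.1% lower), and 5 with control replicates 1 and 2 left out together, where 31.3% did, against 22.2% in the report. Leaving out 1 library at a time gave 2 to 5 members (5 without control replicate 1, where 27.4% of all genes passed), 9 to 17 genes of the wider list and 3494 (without mimic replicate 6) to 5150 (without control replicate 1) of all genes. The log2 fold change of Tarbp2 ran from −0.014 to 0.083 when 1 library was left out and turned to −0.0062 without control replicate 3 and −0.014 without control replicate 4. Same-numbered samples did not deviate together: the correlations of their deviations ran from −0.20 to 0.34, and 0 of 6 control libraries correlated best with its own number. With the replicate block 3659 of all genes, 2 members (Ago4 was lost, edgeR adjusted p 0.0933) and 9 genes of the wider list (7 higher, 2 lower) passed. Of 200 log2 fold changes of the 10 members under alternatives, 175 kept their direction and side of the threshold, 13 lost the call, 10 gained it and 2 changed sign, and the cause was not tested. The gap in the Ago2 share ran from 3.15 to 3.77 percentage points. With 6 libraries a group, the median standard error over all genes was 0.073 on the log2 scale, which limits what can be seen in genes such as Tarbp2.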
